A study of Mus musculus with 11 samples.

Results

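The p53 family of transcription factors and the gene next to one of them were followed in a map of contacts between the genome and lamin B1 in mouse oligodendrocyte lineage cells. The 4 genes were Trp53, Trp63 and Trp73, which encode p53, p63 and p73, and Tprg, the nearest listed neighbour of Trp63 on its upstream side. They were taken by symbol, each had 1 region, and they make up 4 of the 21534 gene regions in the deposited table. The set was chosen from measured values, because Trp63 and Tprg were known to score above 0 in precursor cells and below 0 in differentiating cells. A region is a gene with 10000 bp before its start and 2000 bp after its end (mouse build mm10). Their scores and the changes in those scores are therefore described here with no test.

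The assay was DamID-seq, in which the bacterial enzyme Dam, fused to lamin B1 (Dam-LMNB1), methylates adenines in DNA that comes near the nuclear lamina, and free Dam marks what any Dam can reach. Oligodendrocyte precursor cells (OPC) came from the cortex of C57BL/6 mice at postnatal day 7, with no mutant allele in any group, and received Dam-LMNB1 or Dam from a lentivirus for 1 day. They then spent 72 h in medium for proliferation (labelled PF, here OPC) or for differentiation (labelled T3, here OL, for oligodendrocyte). The 6 libraries with scores are Dam-LMNB1 in OPC (numbers 8, 9 and 10) and in OL (18, 19 and 20), and the authors scored each of them against a pool of free Dam libraries, 2 for OPC and 3 for OL. Positive scores are taken to mean that Dam-LMNB1 methylated a region more than free Dam did. No log base is stated for the score, so differences are in score units. Separate animals or cultures are not named in the labels, so the spread and the p-values measure these libraries only and may be technical. The 3 scores of a condition also share their Dam libraries, whose variation no SD or p-value here includes. The table holds contact scores and no RNA, so cell identity and expression could not be checked, and read depth is unknown.

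As background, the lamina is a filament network under the inner nuclear membrane, and the DNA that lies against it tends to be gene-poor and little transcribed. The p53 protein is a tetrameric transcription factor that is held low by the ubiquitin ligase Mdm2 and, after DNA damage, switches on genes for cell cycle arrest, repair and cell death. Its relatives bind similar DNA: p63 is required for stratified epithelia such as skin, p73 for multiciliated cells and parts of the developing brain, and p53 and p73 have been tied to oligodendrocyte differentiation in culture. Trp63 and Trp73 each give a long protein form from an upstream start and a form that lacks the transactivation domain from a start inside the gene. One score covers a whole gene with its flanks, so the 2 kinds of form cannot be separated in these data.

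Dam methylates the adenine of GATC, which reads the same on both strands, so the promoter sequences below show where the enzyme could act next to the gene starts of the members. Each runs 5′ to 3′ on the gene's own strand, from 250 bases before to 50 bases after an annotated start (RefSeq, GRCm38.p6), with GATC in capitals. They lie at chr11:69580109-69580408 (plus strand) for Trp53, at chr4:154139826-154140125 and chr4:154097124-154097423 (minus strand) for Trp73, and at chr16:25286567-25286866 (plus strand) for Tprg, and 3 of the 4 members matched.
Trp53: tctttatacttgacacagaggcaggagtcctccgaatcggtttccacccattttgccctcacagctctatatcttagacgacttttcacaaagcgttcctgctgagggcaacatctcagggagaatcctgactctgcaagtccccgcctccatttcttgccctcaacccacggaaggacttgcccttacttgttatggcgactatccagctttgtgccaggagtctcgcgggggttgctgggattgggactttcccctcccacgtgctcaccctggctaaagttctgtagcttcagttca
Trp73 upstream start: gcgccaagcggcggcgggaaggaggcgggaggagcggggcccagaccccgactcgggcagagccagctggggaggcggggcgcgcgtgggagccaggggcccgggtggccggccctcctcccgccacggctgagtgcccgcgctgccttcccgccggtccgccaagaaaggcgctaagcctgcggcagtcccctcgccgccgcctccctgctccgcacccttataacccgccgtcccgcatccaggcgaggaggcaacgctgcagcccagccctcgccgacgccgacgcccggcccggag
Trp73 downstream start: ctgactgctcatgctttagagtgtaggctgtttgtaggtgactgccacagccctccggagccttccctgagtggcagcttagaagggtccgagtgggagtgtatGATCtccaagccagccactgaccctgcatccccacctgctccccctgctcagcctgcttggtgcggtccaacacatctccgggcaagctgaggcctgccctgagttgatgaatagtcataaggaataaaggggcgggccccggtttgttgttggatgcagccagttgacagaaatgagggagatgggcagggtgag
Tprg: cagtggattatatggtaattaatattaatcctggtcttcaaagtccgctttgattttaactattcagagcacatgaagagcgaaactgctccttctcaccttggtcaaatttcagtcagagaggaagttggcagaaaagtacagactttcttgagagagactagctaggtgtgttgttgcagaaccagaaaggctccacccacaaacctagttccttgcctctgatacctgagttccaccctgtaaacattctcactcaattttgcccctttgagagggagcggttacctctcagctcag
The windows of Trp53, Tprg and the upstream start of Trp73 hold 0 GATC, and the downstream start of Trp73 holds 1, at −146 from the start. Of all 32851 promoter windows of this length, 48.0% hold GATC. G and C make up 77.7% of the bases at the upstream start of Trp73, 57.7% at its downstream start, 52.7% at Trp53 and 44.0% at Tprg, against a median of 52.7% over all windows. All 4 windows lie inside the scored region of their gene, which is far longer, so a score rests on sites outside them too.

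Over the whole table, library means lay between −0.94 and −0.79, and 26.8% to 28.3% of the regions of a library scored above 0. OL library 18 had the highest mean and the lowest SD, 1.46 against up to 1.59 in the others. At a limma adjusted p under 0.05, OL exceeded OPC in 23.0% of regions and was below it in 10.9%, while 676 regions passed 0.05 by the adjusted p of the authors' deposited table.

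Among the 4 members, Trp63 lay highest in OPC, above Tprg, Trp73 and Trp53 in that order, and the order was the same in OL. No library of a higher member overlapped one of the next lower member within either condition. The smallest gap between neighbours in this order was 0.89 in OPC, between Trp63 and Tprg. In OL it was 0.51, between Tprg and Trp73. Trp53 minus Trp63, the whole span of the family, was −3.999 score units in OPC and −2.261 in OL.

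Trp63, the epithelial p53 relative (chr16:25673765-25894088, a region of 220 kb), scored 1.166, 1.054 and 1.189 in OPC libraries 8, 9 and 10. Its scores in OL libraries 18, 19 and 20 were −0.04, −0.24 and −0.14. All 3 OPC libraries were thus more than 1 unit above 0, while all 3 OL libraries lay just below it, and the conditions did not overlap. The mean was 1.14 ± 0.07 (SD, n = 3) in OPC and −0.14 ± 0.10 (n = 3) in OL, a difference of −1.28. Among all 21534 regions, only 3 had a more negative difference, and 84.0% had a lower mean score in OPC against 71.0% in OL.

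Tprg (chr16:25276817-25424344, 148 kb), whose name marks it as a gene regulated by p63, scored 0.27, 0.24 and 0.24 in OPC libraries 8, 9 and 10. In OL libraries 18, 19 and 20 it scored −0.65, −0.68 and −0.71. Its 3 libraries of each condition lay close together, closer than those of any other member. The mean was 0.25 ± 0.02 (SD, n = 3) in OPC and −0.68 ± 0.03 (n = 3) in OL, a difference of −0.93, and 43 regions had a more negative one. Tprg therefore started nearer to 0 than Trp63 and ended further below it.

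Trp73 (chr4:154054249-154150208, 96.0 kb) scored −0.85, −0.72 and −0.74 in OPC and −1.06, −1.28 and −1.22 in OL, in the same library order. It lay below 0 in all 6 libraries, and lower in each OL library than in any OPC library. The mean was −0.769 ± 0.071 (SD, n = 3) in OPC and −1.188 ± 0.117 (n = 3) in OL, a difference of −0.42. A more negative difference was found in 1083 regions, 5.03% of all.

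Trp53, which encodes p53 itself (chr11:69570359-69593873, 23.5 kb), scored −2.69, −3.01 and −2.89 in OPC and −2.25, −2.41 and −2.54 in OL. These scores were near the bottom of the table: only 1.46% of regions had a lower OPC mean and 8.06% a lower OL mean. The OL libraries were all higher than the OPC libraries, with means of −2.86 ± 0.16 (SD, n = 3) and −2.40 ± 0.14 (n = 3) and a difference of 0.46. Trp53 was the only member with a positive difference, and 93.0% of all regions had a lower difference. With libraries rescaled to 1 common mean and SD the difference was 0.31, and the sign was kept in all 4 members under the 3 scalings run.

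**Figure D1:**
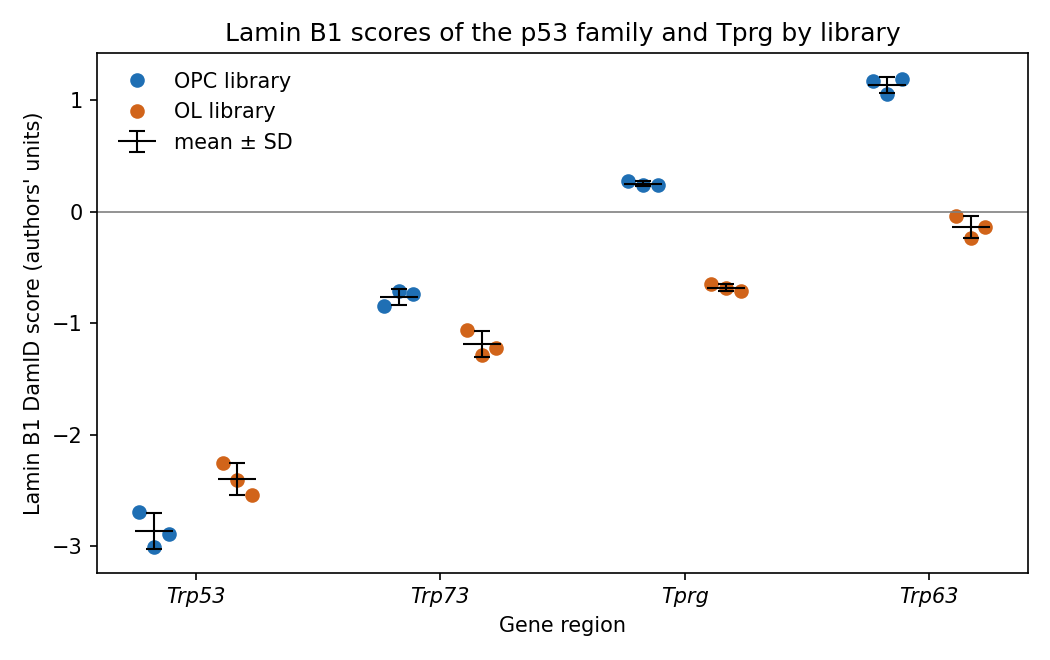
Lamin B1 DamID score (vertical axis, authors' units) of the 4 members in each of the 3 OPC libraries (blue points) and 3 OL libraries (orange points), with the mean and SD as black bars. The conditions do not overlap for any member, and the points of Trp63 and Tprg lie above 0 in OPC and below 0 in OL.

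The conditions did not overlap for any of the 4 members, but the same held for 48.9% of all regions, so a lack of overlap is common in this table. Scores that were positive in every OPC library and negative in every OL library, the pattern Trp63 and Tprg were chosen for, were found in 116 regions, or 0.539%. Within those 116 regions, 1 had a more negative difference than Trp63 and 8 had a more negative one than Tprg. Under quantile normalization the means of Trp63 were 1.14 and −0.16 and those of Tprg 0.28 and −0.70. No scaling placed an OPC mean of these 2 genes below 0 or an OL mean above it. A left-out library could not do so, because every OPC score of both genes was above 0 and every OL score below it.

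**Figure D2:**
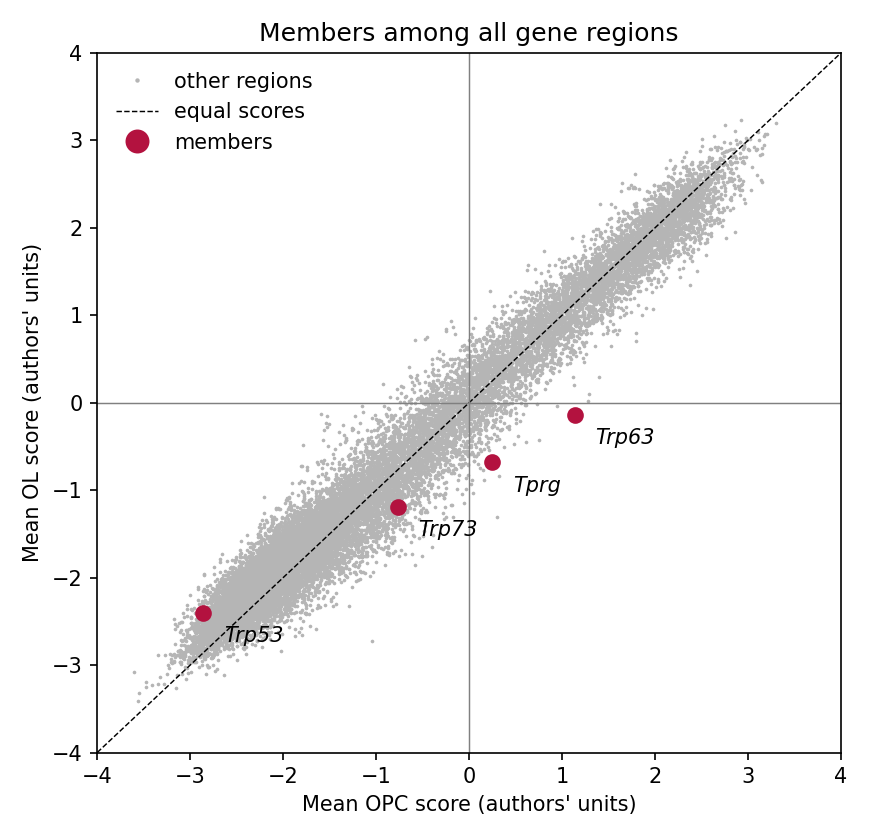
Mean OL score against mean OPC score (authors' units) for all 21534 gene regions (grey) and the 4 members (red), where the dashed line marks equal scores. Trp63 and Tprg lie at the lower right edge of the cloud, Trp73 lies below the dashed line and Trp53 above it at the low end.

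Trp63 and Tprg lie 249 kb apart on chromosome 16, and their surroundings showed where on the chromosome the scores differed. The 10 regions on each side of the pair were read, and none of the 20 overlapped a member. They were tested with limma across all regions, but the locus was picked for its change, so these neighbours are not an independent sample. The scores stepped up along the locus in both conditions: 0 of the 10 regions before the pair and 9 of the 10 after it were above 0 in all 3 OPC libraries, against 26.1% of all regions. In OL these counts were 0 and 10, against 26.3% of all regions. Of the 20 neighbours, 3 were lower and 3 higher in OL at a limma adjusted p under 0.05, against 10.9% lower and 23.0% higher among all regions. Under each of the 3 scalings run, 5 were lower and 2 higher, so the balance of the locus depended on the scaling. The balance of the whole table shifted too: over all 21534 regions the scalings gave 3261 to 3333 lower and 3330 to 3502 higher, against 2345 and 4963 unscaled.

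Upstream, the nearest neighbour was Lpp, a focal adhesion protein gene (chr16:24438091-24994578), 282 kb before Tprg. It scored −1.194, −1.259 and −1.183 in OPC and −1.783, −1.861 and −1.814 in OL. The conditions did not overlap, and Lpp fell by 0.61 ± 0.08 (SE, limma adjusted p = 8.38e-04). The pseudogene Morf4l1-ps1, which lies within the Lpp region and shares its reads, went from −0.84 ± 0.08 to −1.59 ± 0.18 (SD, n = 3 each, limma adjusted p = 1.19e-03). Beyond these, Lppos, the repressor gene Bcl6 and the receptor transporter gene Rtp2 had differences of −0.04, −0.12 and −0.23 and did not pass the test (limma adjusted p = 0.845, 0.308 and 0.0670). With libraries rescaled to 1 common mean and SD, Rtp2 passed (limma adjusted p = 0.0275). It also passed under quantile normalization (0.0372) and with median centring (0.0181), and Bcl6 passed under quantile normalization (0.0386).

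Downstream, the sign of the difference turned within 1 Mb, but not for good. Further on, Uts2b and Ccdc50, named after their values were seen, had differences of −0.12 and −0.07 that did not pass (limma adjusted p = 0.268 and 0.425). P3h2, a collagen prolyl hydroxylase gene only 64.2 kb after Trp63, scored 0.18, 0.25 and 0.21 in OPC and 0.23, 0.05 and 0.10 in OL. Its conditions overlapped, and its difference of −0.09 ± 0.07 (SE) did not pass (limma adjusted p = 0.374). The tight junction gene Cldn1 went from 1.441 ± 0.063 to 1.184 ± 0.094 (SD, n = 3 each, limma adjusted p = 0.0274), and its relative Cldn16, with 1.53 and 1.70, did not pass (0.0869). Tmem207 was higher in OL by 0.20 (limma adjusted p = 0.0368). Il1rap, the accessory chain of the interleukin 1 receptor (chr16:26571705-26727147), scored −0.22, −0.21 and −0.18 in OPC and 0.60, 0.46 and 0.45 in OL. It rose by 0.70 ± 0.07 (SE, limma adjusted p = 3.37e-04), crossing 0 in the direction opposite to Trp63, from which it is separated by 678 kb. The third neighbour called higher was Fgf12, a neuronal fibroblast growth factor homologue and the tenth region after Trp63, named after its values were seen. It went from 1.07 ± 0.06 to 1.39 ± 0.04 (SD, n = 3 each, limma adjusted p = 7.70e-03).

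The calls of Lpp, Morf4l1-ps1 and Il1rap held under all 11 alternative fits. That of Cldn1 was lost without OPC library 8 (limma adjusted p = 0.0878), OPC 9 (0.0757), OL 19 (0.0551) or OL 20 (0.102), within a range from 0.00932 to 0.102. The call of Tmem207 held in only 2 of the 11 fits (limma adjusted p from 0.0287 to 0.188), those without OL library 18 and on regions with a mean score above −2. The authors' deposited table, by its own adjusted p, has Lpp and Tmem207 as the only neighbours under 0.05.

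**Figure D3:**
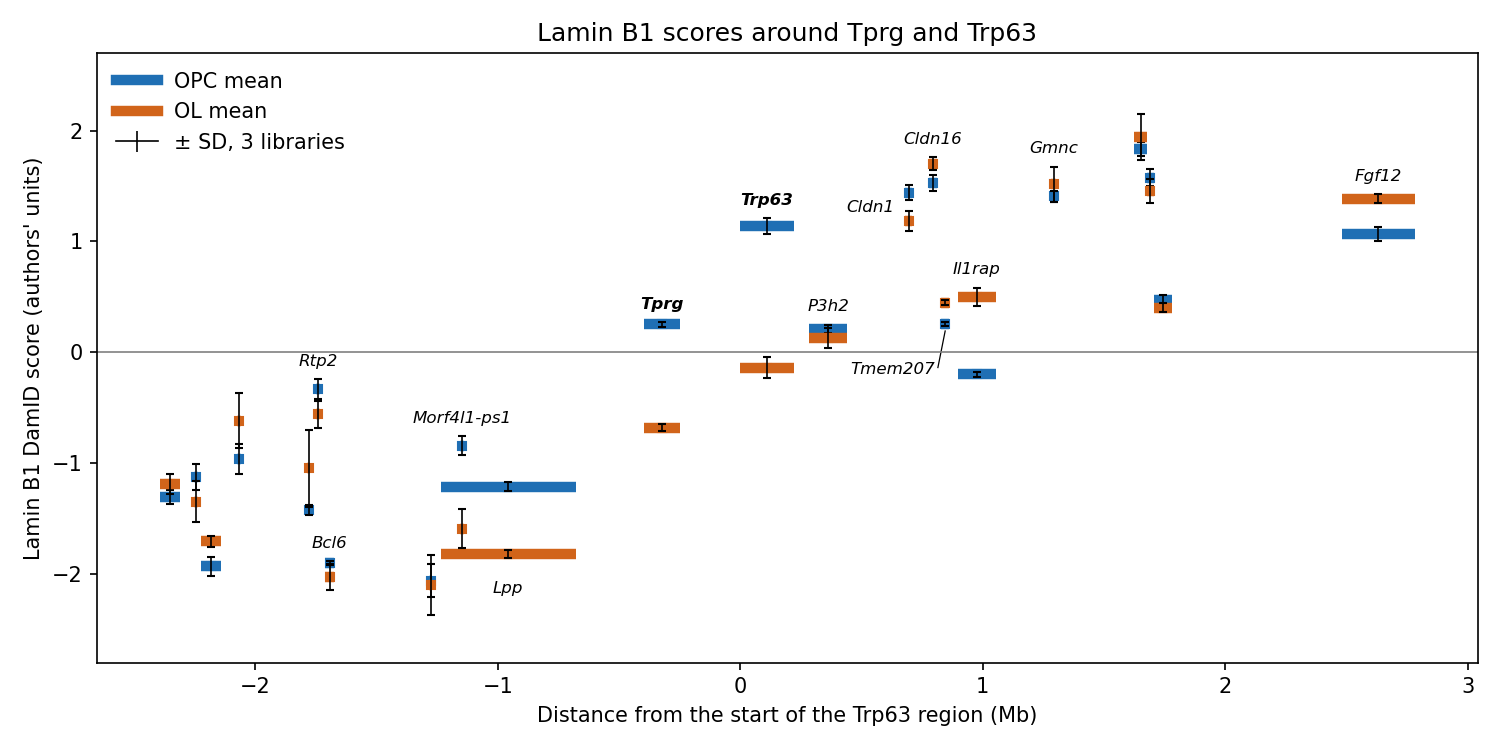
Mean OPC (blue) and OL (orange) score (vertical axis, authors' units) of Tprg, Trp63 and the 10 gene regions on each side against distance from the start of the Trp63 region in Mb. Bar length is region width and black bars are SD over 3 libraries. OL lies below OPC from Morf4l1-ps1 and Lpp through Trp63, and the conditions meet at P3h2. Beyond it OL lies below OPC again at Cldn1 and above it at Cldn16, Tmem207 and Il1rap, and both signs occur further on.

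In OPC, Trp63 belonged to a run of 6 consecutive regions with a mean above 0, from Tprg through P3h2, Cldn1 and Cldn16 to Tmem207 (chr16:25276817-26536771, 1.26 Mb). In OL the means of 4 of these regions were above 0, and those of Tprg and Trp63 were below. The median over the 6 regions was 0.69 in OPC and 0.29 in OL. It includes Tprg and Trp63, which were chosen for this change of sign, so its drop cannot show a fall across the run. Of the other 4 regions, P3h2 and Cldn1 had a lower mean in OL than in OPC, and Cldn16 and Tmem207 a higher one. The length of the run depends on the level: 13 regions lay in it above −0.5, and Trp63 alone above 0.5.

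Around Trp53 and Trp73 the nearest regions were read in the same way. Wrap53, a telomerase and Cajal body protein gene, overlaps 80.7% of the Trp53 region and shares its reads. Its test is therefore not separate from the scores of Trp53, which were described with no test. Wrap53 went from −2.65 ± 0.10 to −2.16 ± 0.11 (SD, n = 3 each) and rose by 0.49 (limma adjusted p = 5.35e-03). Atp1b2, a sodium pump subunit gene on the other side with no overlap, had a difference of −0.02 (limma adjusted p = 0.904), with −1.74 ± 0.21 in OPC and −1.76 ± 0.14 in OL. At Trp73, Wdr8 overlaps 18.6% of the region and had a difference of −0.07 (limma adjusted p = 0.509). Ccdc27 on the other side fell from −0.56 ± 0.10 to −0.86 ± 0.02 (limma adjusted p = 0.0164), a call that was lost without OPC library 10 (0.0631). In OPC, Trp53 scored below both of its neighbours, while Trp73 lay between −1.54 for Wdr8 and −0.56 for Ccdc27.

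The regions with the most similar scores were found by the root mean square difference over the 6 libraries, leaving out members and overlapping regions. For Trp63 these were Mir21c (0.19), Slc24a3 (0.20) and Mir6381 (0.26). For Tprg they were Kcnj2 (0.08), Olfr287 (0.11) and Dpt (0.12). For Trp73 they were Pou2af1 (0.04), Thumpd2 (0.07) and Tram2 (0.08), and for Trp53 Ncbp1 (0.07), Bag4 (0.07) and Tmem39a (0.08). Within 0.2 of the member, a limit set with these values known, were 1 region for Trp63, 23 for Tprg, 282 for Trp73 and 400 for Trp53. These 6 scores are so few that likeness says only that the levels resemble each other.

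The wider p53 pathway was read from 6 lists of genes set by known role, in which the members do not appear. Of 105 genes, 102 had 1 region each. In OL 21 of them were higher and 14 lower than in OPC (limma adjusted p under 0.05), or 20.6% and 13.7%, near the 23.0% and 10.9% of all regions. With libraries rescaled to 1 common mean and SD, 11 were higher and 19 lower, so the direction held by more genes depended on the scaling. Over all regions the higher share of calls went from 67.9% to 50.5% under that scaling, with 3330 of 21534 regions higher and 3261 lower. These counts are the background for the rescaled counts of each list below. The count of higher genes was also 12 without OPC library 9. The median difference was 0.10 over the lists and 0.10 over all regions, but 0.00049 and 0.02 after that rescaling, so its size belongs to the unscaled scores.

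Most pathway genes lay low: 11 of the 102 were above 0 in all 3 OPC libraries and 10 in all 3 OL libraries, against 26.1% and 26.3% of all regions. The median OPC score was −1.80 over the lists and −1.54 over all regions. The median OPC score of the regulators was −2.06, and the 3 target lists ranged from −1.99 for arrest genes to −2.09 for repair and metabolism genes. It was −1.23 for Trp63 epithelial genes and −1.11 for Trp73 multiciliated cell genes, and these differences between lists were not tested.

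Of 21 p53 regulators, 6 were higher (28.6%, against 23.0% of all regions) and 4 lower (19.0%, against 10.9%) in OL, with a median difference of 0.09. With libraries rescaled to 1 common mean and SD, 4 were higher and 6 lower and the median was −0.07, so both the balance and the sign of the median turned. Under that scaling 3330 of all 21534 regions were higher and 3261 lower, with a median of 0.02. Mdm2, the ligase that degrades p53, scored −2.55, −2.18 and −2.43 in OPC and −1.85, −1.95 and −1.98 in OL. Its conditions did not overlap, and it rose by 0.46 (limma adjusted p = 0.0111). Chek1, a checkpoint kinase gene, rose by 0.39 (limma adjusted p = 0.0155). The 3 genes of the p53-binding ASPP proteins did not move together. Trp53bp2 and Ppp1r13b, whose products promote p53-driven cell death, fell by 0.56 from −2.06 ± 0.11 and by 0.39 from −1.79 ± 0.03 (limma adjusted p = 3.50e-03 and 6.99e-03). Ppp1r13l, which encodes the inhibitory member iASPP and was named after its values were seen, rose by 0.38 from −1.87 ± 0.06 (limma adjusted p = 9.16e-03), and all 3 directions were kept under the 3 scalings. The damage kinase gene Atr, named after its values were seen, passed from 0.14 ± 0.02 to −0.16 ± 0.05 (SD, n = 3 each, limma adjusted p = 7.74e-03). Atr was the only gene of the 102 listed with the sign change of Trp63, which 0.539% of all regions showed. On the same list Atm and Prkdc, also named after their values were seen, rose by 0.39 and 0.26 (limma adjusted p = 3.12e-03 and 0.0187). The count of higher regulators was 3 without OL library 20, where the call of Chek1 was lost (limma adjusted p = 0.0514, range 0.00557 to 0.0688). The Chek1 call was also lost with 1 common mean and SD (limma adjusted p = 0.0605) and with median centring (0.0688), and that of Mdm2 under quantile normalization (0.0608).

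Of 9 arrest targets 2 were higher (22.2%, against 23.0% of all regions) and 0 lower (against 10.9%), with a median difference of 0.10. After rescaling to 1 common mean and SD, 1 was higher and the median was 0.05. Gtse1, a G2 phase protein gene, rose by 0.53 from −2.44 ± 0.17 (limma adjusted p = 6.26e-03). Sfn, the epithelial 14-3-3 protein gene that is also on the Trp63 list, rose by 0.36 (limma adjusted p = 0.0393). Cdkn1a, the p21 gene through which p53 halts the cell cycle, was looked up after the values were seen and had a difference of 0.03 (limma adjusted p = 0.914), with overlapping conditions. The Sfn call held in only 3 of 11 alternative fits (limma adjusted p from 0.0167 to 0.183), being lost without OPC library 9 or 10 or OL library 18, 19 or 20. It was also lost under quantile normalization (limma adjusted p = 0.183), with 1 common mean and SD (0.138) and with median centring (0.0876). In this list the count was 1 without OPC 9, OPC 10 or OL 19.

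Among 16 apoptosis targets 5 were higher (31.2%, against 23.0% of all regions) and 0 lower (against 10.9%), with a median difference of 0.21. The ectodysplasin receptor gene Eda2r scored −0.40, −0.30 and −0.50 in OPC and 0.54, 0.33 and 0.18 in OL. It rose by 0.75 (limma adjusted p = 1.06e-03) and was the only listed gene with 3 negative OPC scores and 3 positive OL scores. That is 1 of 102 listed genes, against 161 of all 21534 regions. Apaf1, the core of the apoptosome, rose by 0.62 from −1.99 ± 0.06 (limma adjusted p = 9.16e-04) and is the only listed gene under 0.05 by the adjusted p of the authors' deposited table. The other 3 were Trp53inp1 (0.60), Aen (0.49) and Pidd1 (0.41), all of them p53 targets in cell death, named after their values were seen. With libraries rescaled to 1 common mean and SD, 3 were higher and 1 lower and the median was 0.08, and without OL library 18 the counts were 4 and 1.

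The 14 repair and metabolism targets had 1 higher gene (7.14%, against 23.0% of all regions) and 1 lower gene (7.14%, against 10.9%), with a median difference of 0.10. After rescaling to 1 common mean and SD, 0 were higher and 3 lower and the median turned to −0.05. Cpt1c, a brain carnitine palmitoyltransferase gene, rose by 0.38 (limma adjusted p = 0.0130), which was lost with libraries rescaled to 1 common mean and SD (0.0881) and under quantile normalization (0.119). Mgmt, which repairs alkylated guanine, fell by 0.54 from −0.04 ± 0.04 to −0.57 ± 0.09 (SD, n = 3 each, limma adjusted p = 1.31e-03). Without OPC library 8 the higher count was 2.

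Among 27 Trp63 epithelial genes 7 were higher (25.9%, against 23.0% of all regions) and 6 lower (22.2%, against 10.9%) in OL, with a median difference of 0.09. After rescaling to 1 common mean and SD, as with median centring, 2 were higher and 6 lower, and the median was 0.02 in each. Lamb3, a chain of the skin basement membrane laminin, scored −1.175, −1.366 and −1.139 in OPC and −1.909, −1.922 and −1.963 in OL. It fell by 0.70 (limma adjusted p = 7.96e-04), with no overlap of the conditions. The epidermal differentiation factor Zfp750 fell by 0.52 (limma adjusted p = 0.0225), and the homeobox gene Dlx5 and the epidermal repressor Ovol1 rose by 0.44 and 0.38 (0.0227 and 0.0122). In all 3 OPC libraries 6 of the 27 were above 0 (22.2%, against 26.1% of all regions). In all 3 OL libraries 4 were (14.8%, against 26.3%). Many calls of this list were lost when 1 library was left out. Without OPC 8, 9 or 10 the higher count was 5, 1 and 1, and without OL 18, 19 or 20 it was 1, 2 and 2. The lower count of the list was 3 without OPC 8, OPC 9, OL 19 or OL 20. Over all regions too, the higher count fell from 4963 to between 3136 and 4132 without 1 library. The lower count over all regions, 2345, was then between 1673 and 2552. The call of Dlx5 was lost without OPC 9, OPC 10, OL 18 or OL 19 (limma adjusted p up to 0.0719), and that of Zfp750 without OPC 9, OPC 10, OL 19 or OL 20 (up to 0.0733).

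Of 16 Trp73 multiciliated cell genes 1 was higher (6.25%, against 23.0% of all regions) and 3 were lower (18.8%, against 10.9%), with a median difference of 0.04. The counts were 1 and 3 after rescaling to 1 common mean and SD too, but the median turned to −0.03. Ccdc78, a centriole assembly gene, rose by 0.47 from −2.23 ± 0.08 (limma adjusted p = 5.56e-03). The cilia gene Ak7 fell by 0.41 from −1.13 ± 0.08 (limma adjusted p = 5.22e-03), and Rfx3, a transcription factor of cilia genes, by 0.34 from −1.02 ± 0.04 (0.0103). Gmnc, which starts the multiciliated program, is also the sixth region after Trp63, and its scores of 1.41 ± 0.05 in OPC and 1.51 ± 0.16 in OL (SD, n = 3 each) did not pass the test (limma adjusted p = 0.369). It was named after its values were seen, because it belongs to both sets.

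**Figure D4:**
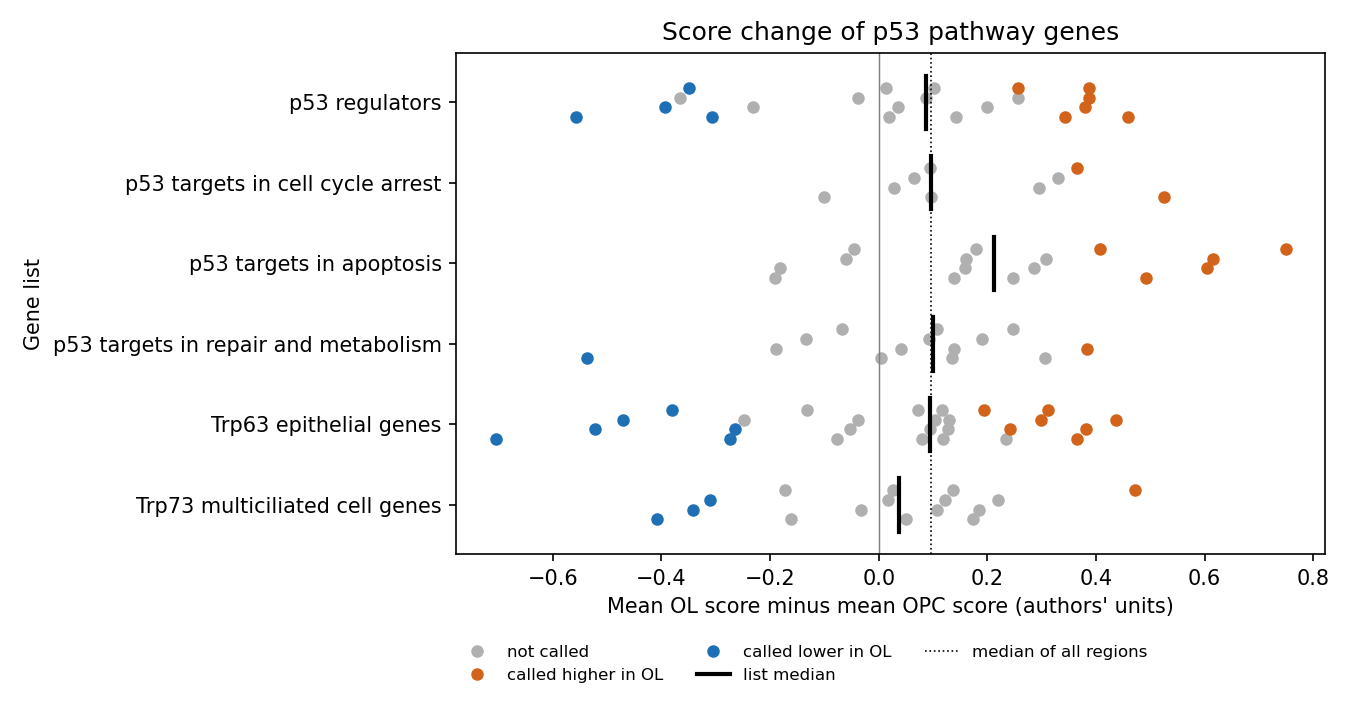
Mean OL score minus mean OPC score (horizontal axis, authors' units) for each gene of the 6 lists, coloured by limma call, with list medians as black bars and the median of all regions as a dotted line. Genes called higher and lower occur in 4 lists, and the apoptosis list has the highest median, 0.21, or 0.08 with libraries rescaled to 1 common mean and SD, where the medians of the regulators, repair and metabolism genes and multiciliated cell genes are below 0.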

How the data were processed

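The libraries were DamID-seq libraries of 11 samples in 4 groups, of which the table scores the 6 Dam-LMNB1 libraries. The submitters' processing notes name BWA 0.7.17, cutadapt 1.9.1 and the genome build mm10. The sources used here do not give the step from reads to scores. Per the file headers, each deposited score compares 1 Dam-LMNB1 library with pooled Dam libraries. The authors also deposited a p-value and an adjusted p-value (1 blank) for OL against OPC.

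Deposited starts count from 0, as judged by 6362 of 9444 plus-strand gene starts that lie exactly 10000 bases after the converted start, and are printed counting from 1. Scores were used as deposited, without transformation or filtering. With R 4.3.3, limma 3.58.1 modelled all 21534 regions with 1 mean per condition and a variance trend (9.42 total degrees of freedom), two-sided, with Benjamini-Hochberg adjustment at 0.05. The fit was tested on simulated data with independent noise in each library, which does not cover the Dam libraries shared within a condition. Alternatives were 3 scalings, no trend, a filter on low scores, leaving out each library and the authors' adjusted p.

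The members and lists were chosen with earlier results of these data known. Named were the members, 2 genes per direction and list with the largest called changes, 5 neighbours on each side of the Trp63-Tprg pair, 1 on each side of Trp53 and Trp73, and 3 most similar regions per member. Of the listed genes without 1 region each, Cdkn2a had several regions, Tp53i3 matched none, and another is not reported here.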

Additional observations from a re-analysis of the deposited data

How the results depend on the processing

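The difference between OL and OPC kept its sign for all 4 members under 3 scalings. Leaving out 1 library could not turn the sign, because the conditions did not overlap for any member. Without 1 library the difference was 0.39 to 0.55 for Trp53, −1.32 to −1.23 for Trp63, −0.48 to −0.37 for Trp73 and −0.95 to −0.92 for Tprg. For Tprg it was −0.97 under quantile normalization, −0.98 with the same mean and SD per library and −1.01 with median centring. Pathway genes higher in OL numbered 21, but 13 under quantile normalization, 11 with the same mean and SD, 13 with median centring and 12 to 19 without 1 library. Those lower numbered 14, and 10 to 17 without 1 library. By the authors' adjusted p these counts were 1 and 0, and 1 neighbour was higher and 1 lower. Of the 20 neighbours, 3 were lower, but 5 under each of the 3 scalings, and 2 to 3 without 1 library. Neighbours higher numbered 3, 2 to 4 without 1 library, and 10 with 20 regions on each side. The run around Trp63 held 6 regions, 13 above −0.5 and 1 above 0.5. By list, scalings moved counts past 1.5 times, or to or from 0. Higher regulators went from 6 to 3 with median centring, and higher arrest genes from 2 to 1 under each scaling. Higher apoptosis genes went from 5 to 3 under quantile normalization and with the same mean and SD, and lower ones from 0 to 1 under each scaling. Higher epithelial genes went from 7 to 4 under quantile normalization and 2 under the other scalings. Higher repair genes went from 1 to 0 under quantile normalization and with the same mean and SD. Lower repair genes went from 1 to 2 under quantile normalization and 3 under the other scalings. On regions with a mean score above −2, the apoptosis count was 3 and the arrest count 1, since fewer genes were tested. For the other shifts the cause was not tested. No paired analysis was run, because the OPC and OL libraries share no replicate numbers and the labels do not say whether they share animals or cultures. Read depth is unknown.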

Other observations

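Cdkn2a, which encodes the Mdm2 inhibitor p19Arf and the cell cycle inhibitor p16Ink4a from overlapping transcripts, had 2 regions on chromosome 4 that share an end and most of their reads, and so entered no list count. Over the longer region (chr4:89272473-89304619) it scored −1.35, −1.46 and −1.62 in OPC and −0.94, −1.29 and −1.07 in OL, and rose by 0.38 (limma adjusted p = 0.0276). Over the shorter one (chr4:89272473-89292192) the difference was 0.30 and did not pass (limma adjusted p = 0.0683).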
